A study of Mus musculus with 5 samples.

Results

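The myeloid genes Spi1, Cebpa, Irf8, Mpo and Csf1r of the mouse were examined for DNA methylation in reduced representation bisulfite sequencing (RRBS) libraries. In RRBS, MspI digestion selects CpG-rich pieces of the genome, and bisulfite then separates methylated from unmethylated cytosines. The members were the CpGs inside 5 windows around these genes that had a second count (defined below) of at least 10 in all 5 libraries. There were 630 such CpGs of 1780536 on the autosomes, and of 1186 CpGs listed in the windows by any library. The Cebpa window held 255, the Irf8 window 245, the Spi1 window 62, the Mpo window 36 and the Csf1r window 32. The libraries were 1 from WT mice, 2 from K36M mice and 2 from K9M mice, where the names stand for lysine-to-methionine mutants of histone H3.3. The K36M and K9M mice drank water with 2 mg/ml doxycycline, and the labels do not say whether the WT mice did, so genotype and doxycycline cannot be told apart in a comparison with WT. The cells are called HSCs in one label and are said in another to have been sorted out of peripheral blood. Only methylation was measured, so the cell label could not be checked against marker expression. The WT group has no replicate, and the 2 libraries of a mutant are not said to come from separate animals. No p-value below is therefore known to measure a spread between animals, and any spread between these libraries may be technical.

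In blood formation, PU.1 (the product of Spi1) and C/EBPα (the product of Cebpa) are the transcription factors that set up the myeloid programme, and IRF8 directs the monocyte and dendritic branches. Mpo encodes myeloperoxidase, a granule enzyme of neutrophils and their precursors, and Csf1r encodes the receptor for the growth factor M-CSF, which monocytes and macrophages need. Enhancers and gene bodies of such genes lose DNA methylation as cells take the myeloid path, while CpG island promoters are usually unmethylated in all blood cells, so partly methylated sites at these loci can differ with the mix of cells.

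Promoter sequences were taken from RefSeq (GRCm38.p6) and located in the mm9 positions of the data by their CpG spacing alone. They are shown because they contrast the CpG-dense starts of the transcription factor genes with the CpG-poor start of Mpo. Each line gives the 250 bases before the start of transcription on the plus strand. For Cebpa (mm9 chr7:35904062-35904311, 22 CpGs) and Irf8 (mm9 chr8:123260008-123260257, 29 CpGs), capitals mark the measured CpGs, 3 and 20 in number. For Mpo, whose 2 CpGs were too few to place it, capitals mark both CpGs.
Cebpa: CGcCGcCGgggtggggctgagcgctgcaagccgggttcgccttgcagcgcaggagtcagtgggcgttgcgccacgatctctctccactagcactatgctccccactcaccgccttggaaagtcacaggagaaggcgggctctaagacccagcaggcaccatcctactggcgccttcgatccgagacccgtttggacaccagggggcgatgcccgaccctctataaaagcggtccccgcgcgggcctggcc
Irf8: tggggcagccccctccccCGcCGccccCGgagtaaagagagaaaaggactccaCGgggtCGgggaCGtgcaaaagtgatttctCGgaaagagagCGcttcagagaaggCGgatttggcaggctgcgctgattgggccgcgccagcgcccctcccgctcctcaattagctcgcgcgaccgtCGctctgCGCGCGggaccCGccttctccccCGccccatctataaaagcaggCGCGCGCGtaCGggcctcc
Mpo: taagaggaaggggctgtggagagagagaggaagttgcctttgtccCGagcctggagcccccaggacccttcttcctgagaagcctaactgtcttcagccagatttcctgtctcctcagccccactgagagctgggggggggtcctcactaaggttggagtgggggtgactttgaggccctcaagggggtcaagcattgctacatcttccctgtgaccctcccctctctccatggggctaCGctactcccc
No measured CpG of the Cebpa stretch passed 2.19% in any library, and none of the Irf8 stretch passed 7.11%. Of the 20 Irf8 CpGs, 14 were at 0 in all 5 libraries. The letters TATAAA, searched on both strands in 300-base promoter windows that end 50 bases past the start, occurred in the Cebpa window and in 1 of the 2 Irf8 windows, as in 13.6% of all 32851 promoter windows. The letters GAGGAAGT, a sequence that PU.1 binds, occurred in the Mpo window and in 3.20% of all windows, but not in those of Cebpa and Irf8. Both searches were chosen after the sequences were seen, and a match is not a binding site.

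Methylation is given as a relative level. The deposited fraction times the deposited total gave methylated reads, and the rest of the total gave the second count. In K9M replicate 2, whose fractions were on another scale, as inferred from the values, the whole total was the second count. The ratio of both counts was divided by its median over the most methylated 20% of 1-kb tiles of the same library, so 100% is the level of a typical fully methylated tile and a level can pass 100%. That median was 1.23 (WT), 1.22 and 1.26 (K36M), 1.37 and 0.954 (K9M). At such ratios the second count cannot be read as unmethylated reads, which would be few in these tiles. The logistic model used below adds both counts, so the methylated reads of K9M replicate 2 enter it in both. Of the members, 588 fell into 64 tiles of 1 kb with at least 3 CpGs, and 42 fell outside. The mean over the 5 libraries was under 20% in 14 tiles, between 20% and 80% in 17 and above 80% in 33. The second count per CpG averaged between 35.6 and 47.5 per library over the windows. Members at the count minimum, with a smallest second count of 10, had a WT level of 54.7% (23 CpGs), and CpGs just outside it, with 9, had 68.0% (17 CpGs).

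The partly methylated tiles of the myeloid loci had lower levels in the mutant libraries than in the single WT library, a description without a test. Over the 17 tiles between 20% and 80%, WT had a mean relative level of 69.9%, the K36M pair 59.7% and 56.8%, and the K9M pair 58.4% and 65.4%. The WT library stood above all 4 mutant libraries in this mean, and the K36M and K9M ranges overlapped. The mean difference from WT was -11.68 points for K36M and -8.05 points for K9M. Over all 20145 autosomal tiles of the same class the same differences were -6.58 and 1.48 points. K36M replicate 1 was below WT in 14 of the 17 tiles, K36M replicate 2 in 16, K9M replicate 1 in 14 and K9M replicate 2 in 11. Over all autosomal tiles of the class, these libraries were below WT in 70.7%, 69.8%, 52.5% and 36.7% of tiles, in the same order. All 4 mutant libraries were below WT in 9 of the 17 tiles, against 20.8% of all autosomal tiles of the class, and all 4 were above WT in 0, against 10.3%. With 1 WT library, a level particular to that library and a difference of genotype cannot be told apart. The K9M difference is smallest in K9M replicate 2, whose scale was inferred: it was -9.81 points without that library, -3.35 points without K9M replicate 1, and 7.502 points on the fractions as deposited. All autosomal tiles of the class then had -0.62, 3.37 and 10.9 points, in the same order. With the tiles classed by the WT library alone it was -2.87 points over 12 window tiles, against 4.09 points over all autosomal tiles of that class. In bulk DNA, a changed share of a cell type and a changed level within a cell type cannot be told apart.

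**Figure D1:**
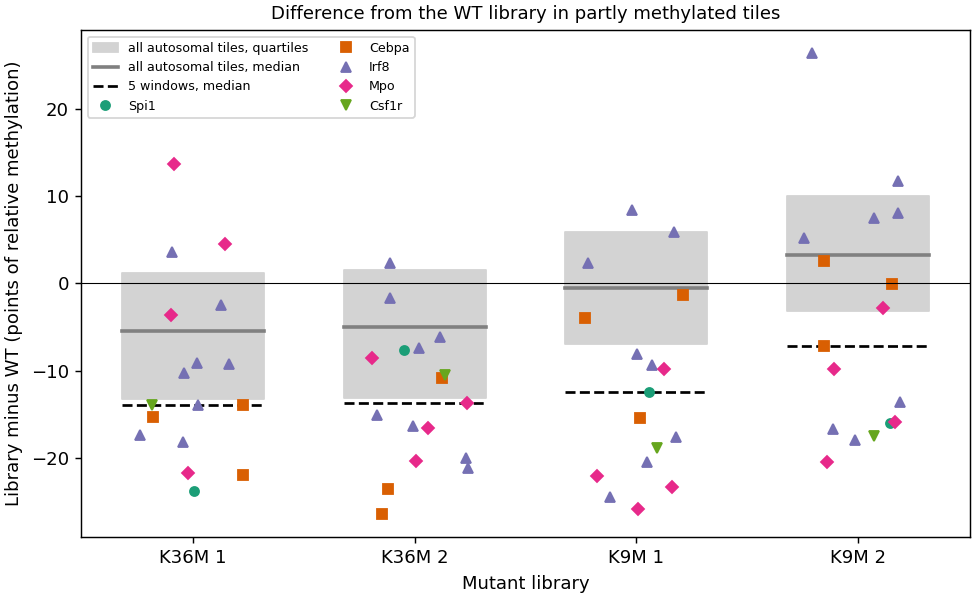
Difference in relative methylation (points) between each mutant library and the WT library, for the 17 partly methylated tiles of the 5 windows (symbols by locus), with the quartiles and median of all 20145 autosomal tiles of the class in grey. The dashed medians of the windows lie below the grey medians in all 4 mutant libraries.

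The K36M and K9M libraries overlapped in the mean over these tiles. The mean of K36M minus K9M was -3.63 points, against -8.06 points over all autosomal tiles of the class. It was -9.27 points at a second count of at least 5, where all tiles had -8.24, and -1.87 points at a count of at least 20, where all tiles had -7.71. Leaving out 1 library gave -7.70 points (without K9M replicate 1), -5.11 (without K36M replicate 1), -1.74 (without K9M replicate 2) and -1.30 (without K36M replicate 2). All tiles then had -10.1, -7.70, -5.79 and -7.84 points, in the same order. The windows were thus less negative than the autosomes except at a count of at least 5, a difference that was not tested. Both K36M libraries were below both K9M libraries in 7 of the 17 tiles, against 47.1% of all autosomal tiles of the class, and above them in 3, against 8.93%. The median tile difference between K36M and K9M was -1.51 points in the partly methylated tiles of the windows and -6.32 points over the autosomes. The order of the mutants changed between loci. At the partly methylated tiles of Cebpa the K36M libraries were lowest, and at those of Mpo and Csf1r a K9M library was lowest.

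**Figure D2:**
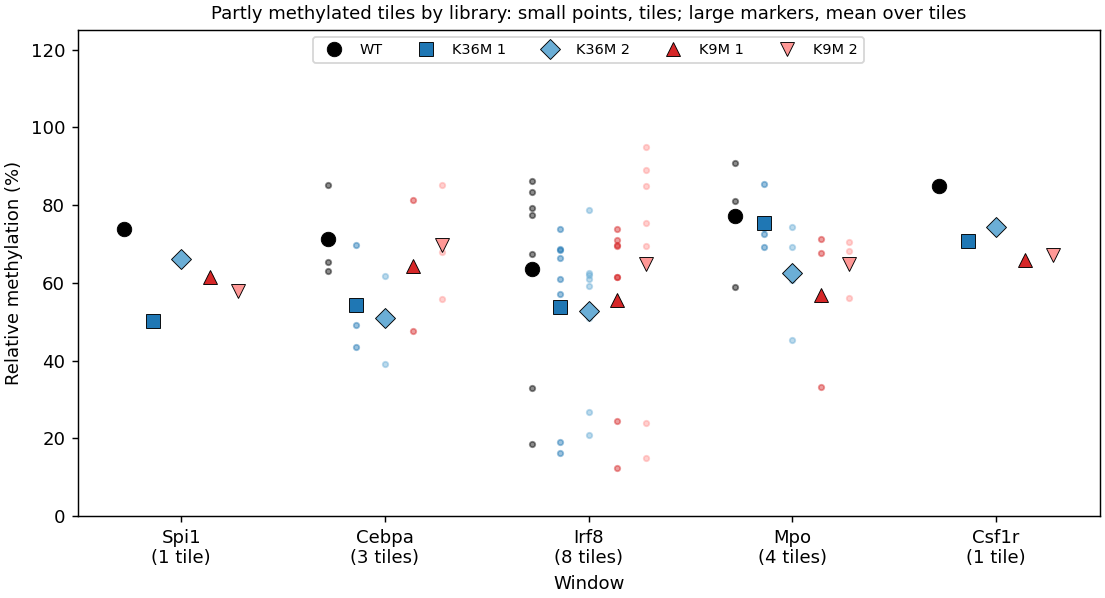
Relative methylation (%) of the partly methylated tiles of each window in each library, with small points for tiles and large markers for the mean over the tiles of that window. The WT mean is the highest of the 5 libraries at Spi1, Cebpa, Mpo and Csf1r, and at Irf8 the K9M replicate 2 mean (64.7%) lies above the WT mean (63.4%).

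No tile of the 5 windows passed the test in any comparison. A logistic model per tile with moderated dispersion was fitted to all 152678 autosomal tiles. A call needed a Benjamini-Hochberg adjusted p under 0.05 and at least 10 points. The dispersion, a measure of the spread between libraries beyond read counting, was held at or above 1. It passed 1 in 22.3% of all tiles. In the other tiles the p-value rests on the counts alone, taken as independent although neighbouring CpGs share reads. In K36M against WT, 0 of 64 tiles were called, against 0.439% of all tiles called lower and 0.0118% higher. At an unadjusted p under 0.05, 8 of the 64 were lower and 0 higher, against 3.78% and 1.34% of all tiles. In K9M against WT, 0 of 64 tiles were called, against 0.0242% lower and 0.0458% higher. At an unadjusted p under 0.05, 5 were lower and 1 higher, against 1.23% and 1.58%. In K36M against K9M, 0 of 64 tiles were called, against 1.16% lower and 0.0668% higher. At an unadjusted p under 0.05, 7 were lower and 3 higher, against 5.44% and 1.84%. At these shares of all tiles fewer than 1 of 64 would be called, so the counts of 0 do not set the windows apart. A tile that misses the threshold is not shown to be equal. The shares depend on the class of the tiles. Of all 20145 partly methylated autosomal tiles, 473 were called lower and 14 higher in K36M against WT. In K9M against WT these were 20 and 39, and in K36M against K9M 1322 and 70. Of the 101550 autosomal tiles above the partly methylated range, 3, 0 and 18 were called lower and 1, 0 and 5 higher, in the same order. The counts of 0 thus say little about the 33 window tiles above that range, or about tiles too low to differ by 10 points. With edgeR's quasi-likelihood test in place of the logistic model, 0 tiles were called in K36M against WT, 1 in K9M against WT and 1 in K36M against K9M. That test called 1.11%, 0.259% and 2.18% of all tiles, in the same order, in either direction. At these shares about 1 of 64 would be called in the last comparison. Fewer than 1 would be called in K9M against WT, where 1 was called, and that single call was not tested against the share. With limma on the relative levels, 0 were called in all 3, against 0.171%, 0.0452% and 0.736% of all tiles.

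**Figure D3:**
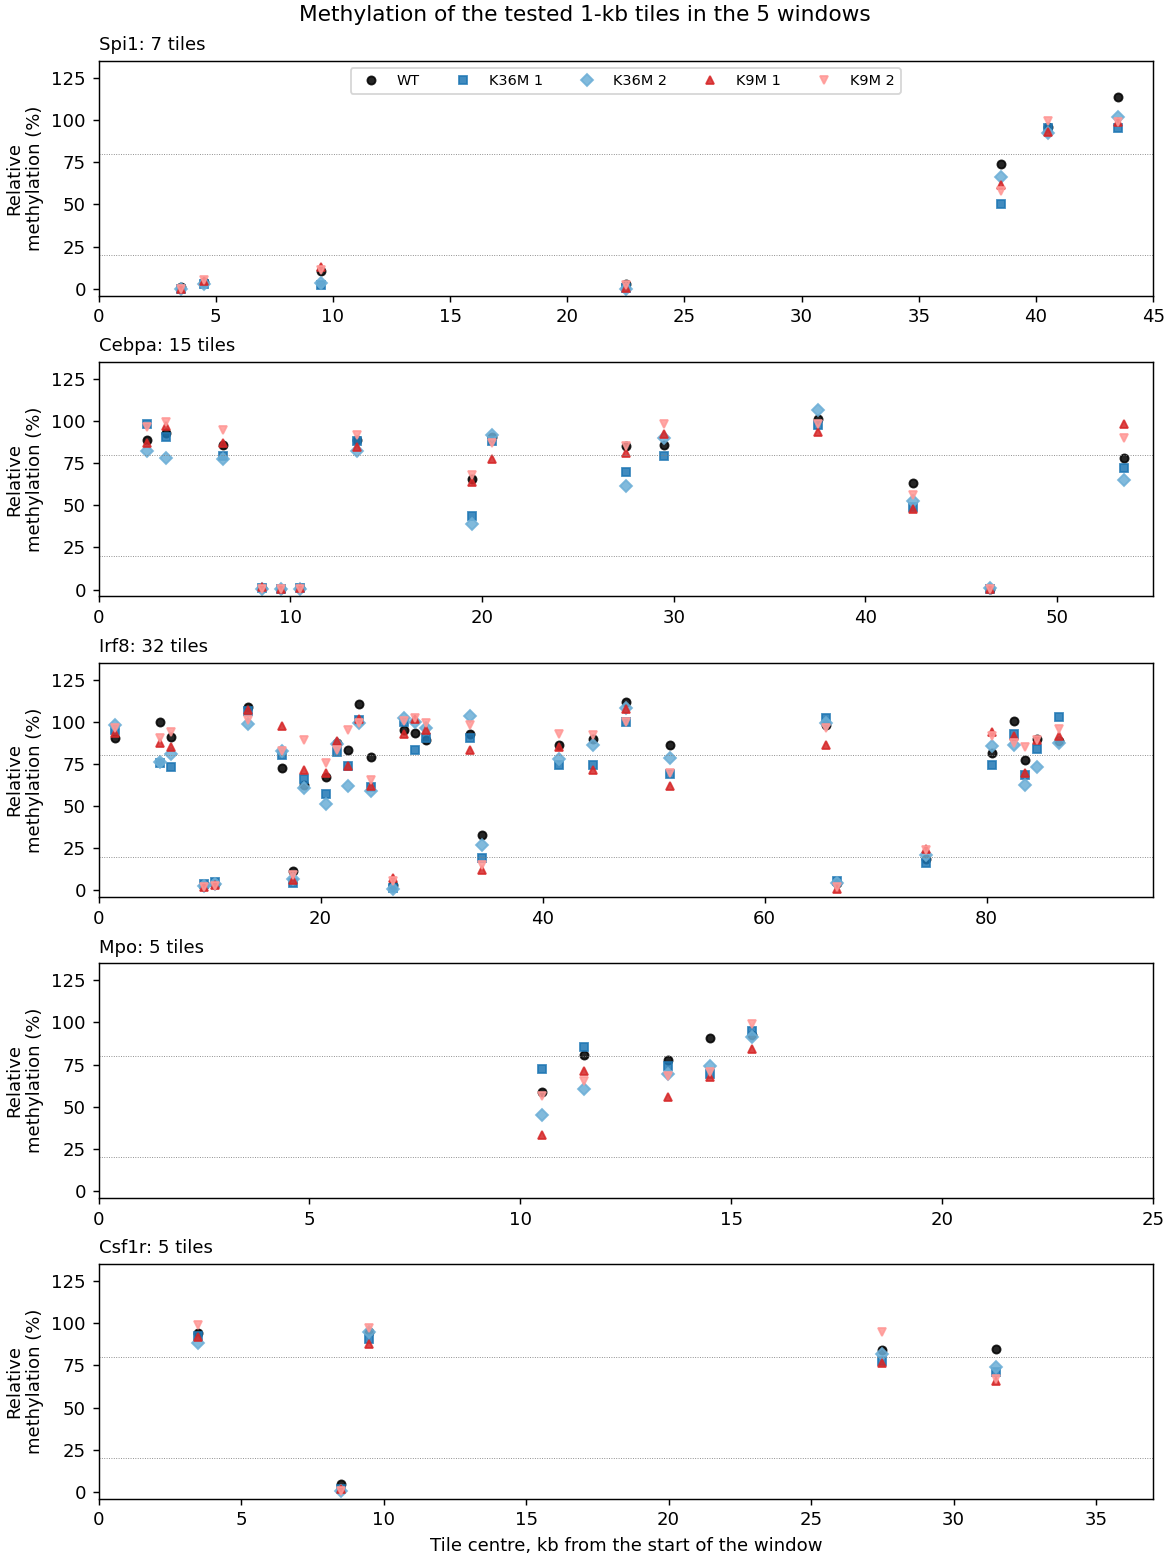
Relative methylation (%) of all 64 tested tiles against their distance in kb from the start of each window, with 1 symbol per library and dotted lines at 20% and 80%. The tiles around the placed Cebpa and Irf8 starts, 8 to 11 kb into both windows, lie under 20% in all 5 libraries.

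The Spi1 window (mm9 chr2:90915000-90960000) held 7 tiles, of which 4 were under 20%. Its level pooled over all CpGs was 41.0% (WT), 37.5% and 39.7% (K36M), 42.2% and 42.6% (K9M). Both K36M libraries were thus below the other 3, and an exact two-sided permutation test of K36M against K9M gave p = 0.33, the smallest that 2 libraries against 2 allow. Tile by tile, both K36M libraries were below both K9M libraries in 3 of 7, against 29.0% of all autosomal tiles. They were above them in 0, against 12.9%. The tile with the smallest p between K36M and K9M was a low one of 7 CpGs from base 90924001. It had 10.3% (WT), 2.32% and 3.28% (K36M), 12.9% and 11.3% (K9M). Here K36M was -9.31 points from K9M with an adjusted p of 0.0361 in the logistic model, which falls short of a call because the difference is under 10 points. The tile with the smallest p against WT, from base 90937001, had 3.11% (WT), 0.29% and 0.00% (K36M), 0.48% and 2.05% (K9M). Its adjusted p was 0.115 for K36M against WT. The single partly methylated tile had 73.9% (WT), 50.1% and 66.2% (K36M), 61.5% and 57.8% (K9M). The start of Spi1 was not placed, so no tile is assigned to its promoter.

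The measured CpGs of the Cebpa window (mm9 chr7:35895000-35950000) were mostly unmethylated, because 194 of the 255 lay in 4 tiles under 20%. The window as a stretch of DNA was not: of its 15 tiles, 3 were partly methylated and 8 were above that range. Its pooled level was 13.5% (WT), 13.7% and 12.6% (K36M), 14.2% and 13.7% (K9M), with all 3 groups close together. The 3 tiles around the placed start, with 40, 79 and 70 CpGs, stayed between 0.27% and 1.56% in all libraries. The tile from 36.69 to 37.69 kb past the start, a distance at which a myeloid enhancer of Cebpa is known, was between 0.32% and 0.68%. No comparison passed the test in these 4 tiles (adjusted p of at least 0.737 in the logistic model). In the tile with the start itself both K36M libraries (0.652% and 0.519%) were above WT (0.375%) and both K9M libraries (0.326% and 0.265%). Both K36M libraries are above both K9M libraries in 25.5% of all 30983 autosomal tiles under 20%, so this order is common near the floor. A tile of 3 CpGs from base 35914001, 9.69 to 10.69 kb past the start, had 65.4% (WT), 43.4% and 39.0% (K36M), 64.1% and 67.9% (K9M). Both K36M libraries were below the other 3. K36M was -24.8 points from K9M with an adjusted p of 0.133 in the logistic model and 0.00627 in edgeR's quasi-likelihood test, and -24.2 points from WT with an adjusted p of 0.403 in the logistic model. At the far end, the tile from base 35948001 had 78.1% (WT), 72.4% and 65.2% (K36M), 98.2% and 89.8% (K9M), with an adjusted p of 1 for K9M against WT.

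The Irf8 window (mm9 chr8:123250000-123345000) held the most tiles, 32, with 19 above 80%. Its pooled level was 59.98% (WT), 55.4% and 57.2% (K36M), 57.6% and 58.6% (K9M), so WT was above all 4 mutant libraries, and K36M was below K9M. Tile by tile, all 4 mutants were below WT in 10 of 32, against 16.0% of all autosomal tiles, and above in 3, against 14.1%. Both K36M libraries were below both K9M libraries in 13, against 29.0%, and above them in 5, against 12.9%. The tile with the placed start, with 47 CpGs, was between 2.89% and 5.15% in all libraries. A tile from 55.74 to 56.74 kb past the start, where a myeloid enhancer of Irf8 is known, had 4.46% (WT), 5.84% and 4.10% (K36M), 0.90% and 1.79% (K9M). The 5-CpG tile from base 123284001, 23.74 to 24.74 kb past the start, had 32.8% (WT), 18.9% and 26.7% (K36M), 12.4% and 14.8% (K9M). WT was the highest library and the K9M libraries were the lowest. K9M was -19.2 points from WT, with an adjusted p of 0.138 in the logistic model and 0.00977 in edgeR's quasi-likelihood test. The first CpG had 69.4% in WT against 29.1% and 41.5% in K9M. A low tile from base 123276001 had 3.43% (WT), 1.17% and 0.83% (K36M), 7.11% and 5.70% (K9M). Its difference of -5.40 points between K36M and K9M had an adjusted p of 0.0383 in the logistic model and was under 10 points.

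The Mpo window (mm9 chr11:87600000-87625000) had 5 tiles, none under 20%. Its pooled level was 82.1% (WT), 77.4% and 72.4% (K36M), 63.2% and 73.9% (K9M). WT was highest, and K36M and K9M overlapped (exact two-sided permutation p = 0.667). The 10-CpG tile from base 87613001 crossed from methylated to unmethylated DNA in all 5 libraries: its first CpG had 98.2% in WT and its ninth had 2.5%. The tile had 77.8% (WT), 74.2% and 69.3% (K36M), 55.8% and 68.1% (K9M). Both K9M libraries were below the other 3, and the adjusted p was 1 for K9M against WT. The next tile, of 9 CpGs from base 87614001, had 90.9% (WT), 69.2% and 74.4% (K36M), 67.6% and 70.4% (K9M). Its differences of -19.1 points for K36M and -21.9 points for K9M did not pass the test, with an adjusted p of 1 in both cases in the logistic model. On the fractions as deposited, K9M minus WT turned positive for the pooled levels of Mpo (8.16 points), Irf8 (7.51) and Csf1r (14.5). Neighbouring CpGs share reads, so they are not independent measurements.

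**Figure D4:**
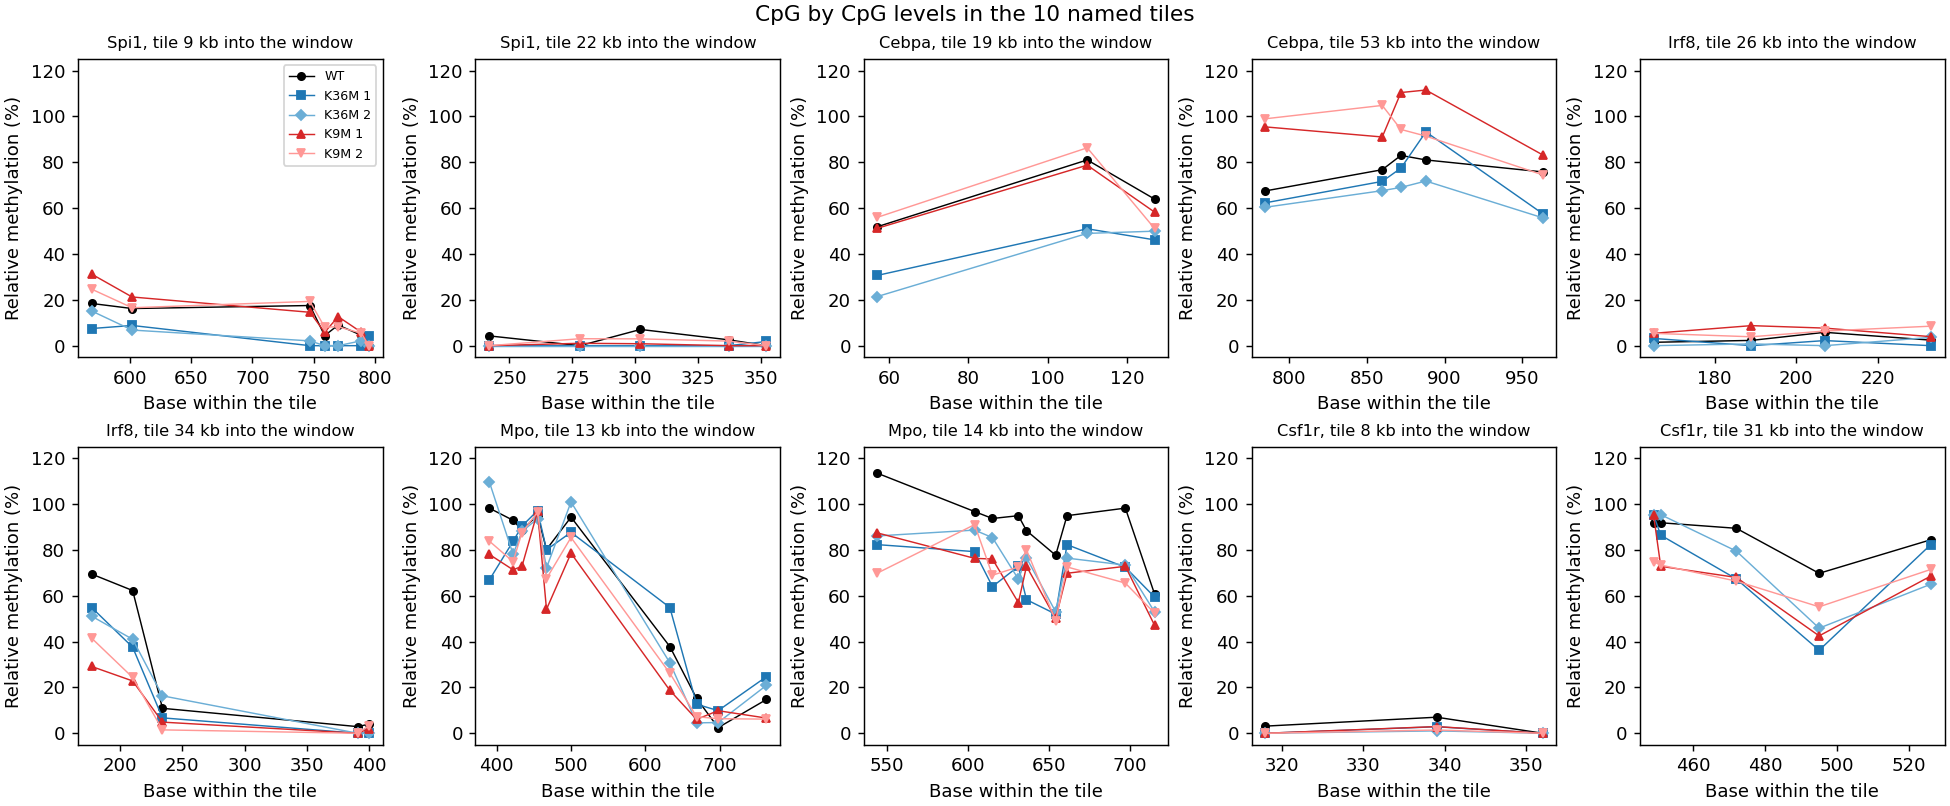
Relative methylation (%) of each CpG in the 10 named tiles, against the base within the tile, with lines joining the CpGs of a library. In the Mpo tile 13 kb into the window the 5 lines run from between 66.8% and 109.7% at the first CpG to between 6.2% and 24.7% at the last.

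The Csf1r window (mm9 chr18:61260000-61297000) had 5 tiles, with 3 above 80%. Its pooled level was 82.7% (WT), 78.0% and 79.97% (K36M), 77.5% and 82.3% (K9M), and the exact two-sided permutation p for K36M against K9M was 1. The partly methylated tile of 5 CpGs from base 61291001 had 84.8% (WT), 70.9% and 74.3% (K36M), 65.9% and 67.3% (K9M). WT was the highest library, K36M was 6.03 points above K9M, and no comparison passed the test (adjusted p of 1 in each). The low tile from base 61268001, of 3 CpGs, had 4.47% in WT and between 0.56% and 1.57% in the mutants.

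Of 28 further genes of the myeloid programme, 22 were in the promoter table, 8 could be placed and 7 had enough CpGs to test. The promoters of Cebpb, Klf4, Gfi1, Irf5, Id2 and Runx1 were under 2% in every library. Csf2ra, which encodes the GM-CSF receptor alpha chain, had 77.6% (WT), 80.3% and 82.4% (K36M), 60.5% and 69.5% (K9M). There K36M was 16.4 points above K9M, and the adjusted p was 0.87 for K36M against K9M in the logistic model. None of the 7 was called, nor were the Cebpa and Irf8 promoters, against 0.0402% of 9946 promoters called in any comparison. Among promoters of other blood lineages, 14 windows were tested. Those of Kit, from bases 75970762 and 75970766, hold the same 8 CpGs, and Gata2 also has more than 1 window. Of the 14 windows 0 were called, and 12 of them were under 20%. Those above it were the T cell kinase gene Zap70, between 67.4% and 85.7%, and the erythropoietin receptor gene Epor. Epor had 28.8% (WT), 17.9% and 16.3% (K36M), 59.5% and 57.6% (K9M) over 7 CpGs. K36M was -41.4 points from K9M there with an adjusted p of 0.183 in the logistic model, which is not a call. No B cell promoter of the list could be tested. The share of a cell type was not tested with any of these promoters, most of which were close to unmethylated in every library.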

How the data were processed

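RRBS libraries of mouse cells, 1 WT, 2 K36M and 2 K9M, were grouped by their titles. Each table deposited by the authors lists, without a header, CpG positions with a methylation fraction and a total read count. Per the submitters' processing notes, cutadapt, BSMAP and the mm9 build were used, with no versions given. Deduplication of reads is not mentioned in those notes. The libraries listed 3356656 to 3534966 CpGs, with 108651379 to 168836289 counts on the autosomes. Products of fraction and total were whole within 0.01 in 100% of values in 4 libraries and in 89.2% in K9M replicate 2. Tiles were tested with a quasi-binomial logistic model, its dispersion moderated by limma 3.58.1 with a trend in log mean count and held at or above 1, with the library plateau as offset. edgeR 4.0.16 and limma on levels were alternatives, and the fits were tested on simulated data. With each tile's fitted spread, the logistic model called most of the large changes and few of the moderate ones, edgeR called more of both with more false calls, and limma made no call. With a much wider spread, tried first, none of the 3 made a call. Of 31396 autosomal RefSeq promoter windows, 17846 had at least 6 CpGs, 10984 were placed once by at least 6 neighbouring listed CpGs in a row, and 99.6% of these were on their own chromosome. The named tiles were, in each window and comparison, the one with the smallest p. Replicate numbers were not used to pair the samples in the logistic model. Deviations of same-numbered libraries correlated at 0.077 over tiles, a value that cannot show whether they were prepared together. The members, lists and tests were chosen with earlier results of these data known.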

Additional observations from a re-analysis of the deposited data

How the results depend on the processing

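With the fractions as deposited, which leave K9M replicate 2 on its own scale, K9M minus WT became 14.5 points for the Csf1r window, 7.51 for Irf8, 8.16 for Mpo and 5.04 for Spi1, 7.502 for the partly methylated tiles and 15.9 for the median tile. Over the autosomes it then was 10.9 for the partly methylated tiles and 19.1 for the median tile. K36M minus WT became -1.10, -1.49 and -2.23 for Csf1r, Irf8 and Mpo, -4.46 for the partly methylated tiles and -1.40 for the median tile. K36M minus K9M became -10.4 for Mpo, -7.17 for the Mpo tile from base 87613001 and -8.54 for the Csf1r tile from base 61291001, and K9M minus WT became 5.17 for that Mpo tile. With the mean of CpG levels, K36M minus WT was -1.82 for Cebpa and -5.28 for Spi1, and K9M minus WT was -0.015 for Cebpa, -1.17 for Irf8 and -2.37 for Spi1. At a second count of at least 20, K9M minus WT was 0.0856 for Cebpa and 4.04 for Spi1, and the median tile of K36M minus WT was -2.43, against -3.95 at a count of at least 5 and -2.96 with a plateau from the top 40%. That plateau gave 0.730 for K36M minus K9M at Csf1r, and leaving out 1 library gave -3.29 to 1.501 there. With 1 library left out, the median tile was -3.76 to -3.25 for K36M minus WT and -2.78 to -0.037 for K9M minus WT. The mean of partly methylated tiles, chosen after seeing the data, was -9.37 for K36M minus WT and -2.87 for K9M minus WT with classes from the WT library, and -14.3 for K36M at a count of at least 5. With edgeR, 1 window tile was called in K9M against WT, where 150 of all tiles were called lower and 246 higher, and 1 in K36M against K9M, where 3122 were lower and 211 higher. Over all tiles, 671 were called lower in K36M against WT, 1625 with edgeR, 256 with limma, and 0 when either K36M replicate was left out.

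The replicate block left 0 calls in the windows and 0 over all tiles, and with 1 residual degree of freedom it says nothing about stability. The fractions as deposited also gave 0 calls over all tiles.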
